A study of Caenorhabditis elegans with 53 samples.

Results

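The 36 genes described here drive the copying of DNA and the division of the nucleus in the nematode Caenorhabditis elegans, and they were measured in nuclei of neurons and in all nuclei of the same animals at 4 stages. They were taken by name from the authors' table of raw counts, 36 of its 41897 genes, and they fall into 7 roles, from replication licensing to the centrosome. All 36 passed the filter on low counts in the fit of all 38 libraries.

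A cell that divides first licenses its origins of replication with the origin recognition complex and the MCM helicase, then copies its DNA, and then separates the copies with mitotic kinases, kinetochores and a spindle built by centrosomes. Cyclins bound to cyclin-dependent kinases order these steps. Neurons are postmitotic once born, and in the worm most of them are born in the embryo, while larvae add neurons from dividing precursors. In adult hermaphrodites the somatic cells no longer divide and the germ line is the dividing tissue, where oocytes also store cell cycle products for the embryo.

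All 38 libraries came from the strain UPN::INTACT (otIs790), in which a transgene active in neurons tags their nuclei so that these can be pulled down. Libraries of the pulled-down nuclei are called neuronal IP, and libraries of the total nuclei are called input. Neuronal IP had 4 libraries at L1 (8 ± 1 h after plating), 5 at L2 (21 ± 1 h), 6 at L4 (40 ± 2 h) and 7 in adults (53 ± 2 h), and input had 4, 3, 4 and 5 at the same stages. Each larval library up to L2 came from about 600000 pooled animals and each later one from about 200000. The series also holds 15 neuronal IP libraries of adult or L1 lin-4(e912) null, lin-14(ot1087) and lin-28(ot1088) gain-of-function animals, named here after the growth protocol, since the strain labels give lin-14(e1087) and lin-14(e1088) for the gain-of-function libraries. Their tables hold 7974 genes and 0 of the 36, so these mutants are not analysed here.

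Total counts ran from 8582120 to 53251753 per library. As a check on the pull-down, 18 of 18 pan-neuronal markers were higher in neuronal IP than in input (40.97% of all genes). Their median log2 fold change was 3.14. The authors' neuronal gene set took 20.5% to 35.7% of counts in adult neuronal IP, against 7.5% to 11.6% in adult input, and 48.1% to 53.5% in L1 neuronal IP, against 16.3% to 18.8% in L1 input. Levels of single genes are given as CPM, the count of a gene scaled to a common library total with factors from the trimmed mean of M-values (TMM). In bulk samples of this kind, fewer nuclei of a type and less RNA in each nucleus cannot be told apart.

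The summed level of the 36 genes was lower in neuronal IP than in input and far higher in adults than in larvae, in both fractions. In neuronal IP the lowest and highest sums were 732 and 1051 CPM for L1, 510.2 and 725 CPM for L2, 719.8 and 1821 CPM for L4, and 3063 and 6504 CPM for adults. In input they were 1275 and 1642 CPM for L1, 809 and 1011 CPM for L2, 1557 and 3975 CPM for L4, and 6134 and 10863 CPM for adults. In each of the 16 pairs of libraries with the same stage and replicate number the IP library held less than the input library. The ratio of IP to the same-numbered input had a lowest, median and highest value of 0.516, 0.585 and 0.730 for L1, 0.558, 0.602 and 0.631 for L2, 0.456, 0.511 and 0.739 for L4, and 0.470, 0.636 and 0.810 for adults. For comparison, the summed pan-neuronal markers had ratios between 5.57 and 16.9.

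The L4 libraries did not form a single level. L4 neuronal IP libraries 1 to 3 summed to 1527 to 1821 CPM and libraries 4 to 6 to 719.8 to 1150.5 CPM, the second range overlapping that of L1. Among L4 inputs, library 4 stood at 1557 CPM against 3237 to 3975 CPM in the others. The authors' neuronal gene set took 22.5% to 33.3% of counts in L4 IP libraries 1 to 3. In L4 IP libraries 4, 5 and 6 it took 26.3%, 45.5% and 43.2%. The L2 IP libraries with the highest sums, 3 and 5 (725 and 717 CPM), had 31.5% and 35.95%, against 44.3% to 52.4% in the other L2 IP libraries. The part of this share in the levels of the 36 genes was not tested.

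A climb after L2 and lower sums in neuronal IP were also seen for a list of 47 markers of germ line and oocytes. Their sum in neuronal IP was 439 to 524 CPM for L1, 501 to 683 CPM for L2, 1071 to 4018 CPM for L4 and 9821 to 17934 CPM for adults, and in input 568 to 743, 688 to 1008, 2579 to 9050 and 16226 to 31403 CPM. None of the 47 was at 0 in every library of a group. The IP-to-input ratio of this sum had medians of 0.720 for L1, 0.728 for L2, 0.501 for L4 and 0.629 for adults, beside 0.585, 0.602, 0.511 and 0.636 for the 36 genes. The part of germline nuclei or their RNA in the levels below was not tested.

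**Figure D1:**
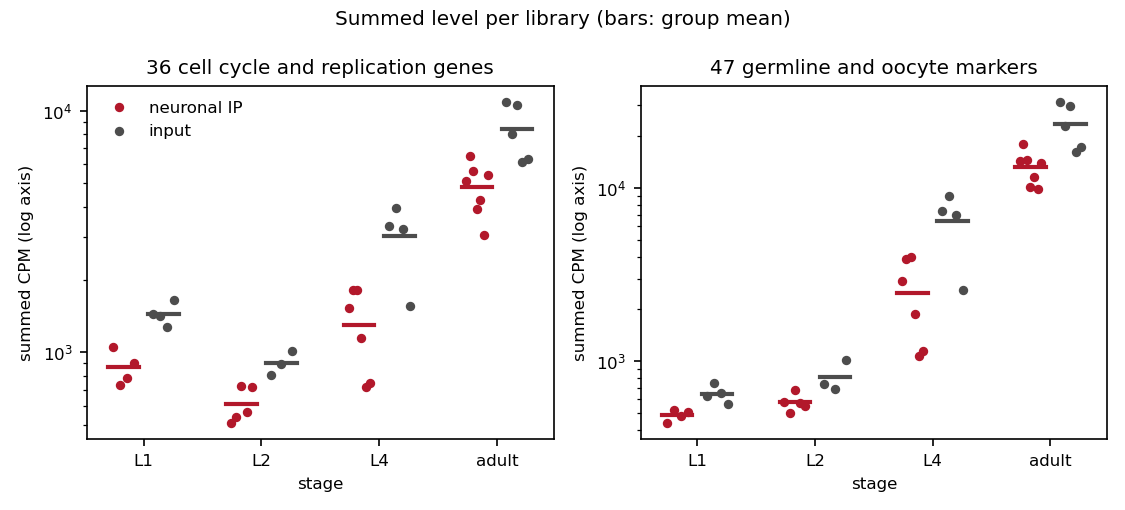
Summed CPM per library (log axis) of the 36 cell cycle and replication genes (left) and of 47 germline and oocyte markers (right), by stage, with neuronal IP in red and input in grey; points are libraries and bars are group means. Adult neuronal IP libraries lie between 3063 and 6504 CPM in the left panel, below adult input at 6134 to 10863 CPM apart from a small overlap, and both panels climb after L2.

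Set against input over the 4 stages, 29 of the 36 genes were lower in neuronal IP, 2 were higher and 5 were not called (edgeR quasi-likelihood test, adjusted p under 0.05, n = 22 and 16 libraries). Of all 21040 genes tested, 23.4% were lower and 40.97% higher. The median log2 fold change of the 36 was -0.96, against 0.25 for all genes. The scaling moves both values: with median-ratio (RLE) scaling the median of all genes shifted by -0.18, and over 46 other settings it ran from -0.21 to 0.42. Of these 46 settings, 38 were the same fit with 1 library left out, so they are not separate lines of support. Relative to the median of all genes the 36 lay at -1.22, and between -1.63 and -1.15 in those settings. Measured in this way, 34 of the 36 lay below the median of all genes, and 33 did so in every setting. Lower calls held in all 46 settings for 28 genes, the exception among the 29 being rnr-2 with L4 replicates 4 and above alone.

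Changes below are on the log2 scale, each with its standard error and, where given, its adjusted p. The 2 genes called higher were cdk-4, the kinase partner of cyclin D, at 0.51 (SE 0.18, adjusted p 0.0154), and zyg-8, a doublecortin-family kinase of the spindle, at 0.5 (SE 0.11, adjusted p 0.000271). Neither call was firm, since cdk-4 was called higher in 19 and zyg-8 in 24 of the 46 settings, and cdk-4 turned to -0.01 with adult replicates 1 to 3 alone. Relative to the median of all genes they lay at 0.26 and 0.24. Under no setting was either called lower. The 5 genes without a call were orc-2 at -0.04, cdc-6 at -0.24, cdk-2 at 0.15, bir-1 at -0.16 and zyg-1 at -0.13 on the log2 scale. Of these, cdc-6 was called lower in 29, bir-1 in 26, orc-2 and zyg-1 in 23 and cdk-2 in 1 of the 46 settings. With same-numbered IP and input libraries as a block, cdc-6 was lower at -0.31 (SE 0.09, adjusted p 0.00442) and bir-1 was lower at -0.37 (SE 0.11, adjusted p 0.00566), while cdk-4 at 0.33 (SE 0.16, adjusted p 0.0696) was not called.

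**Figure D2:**
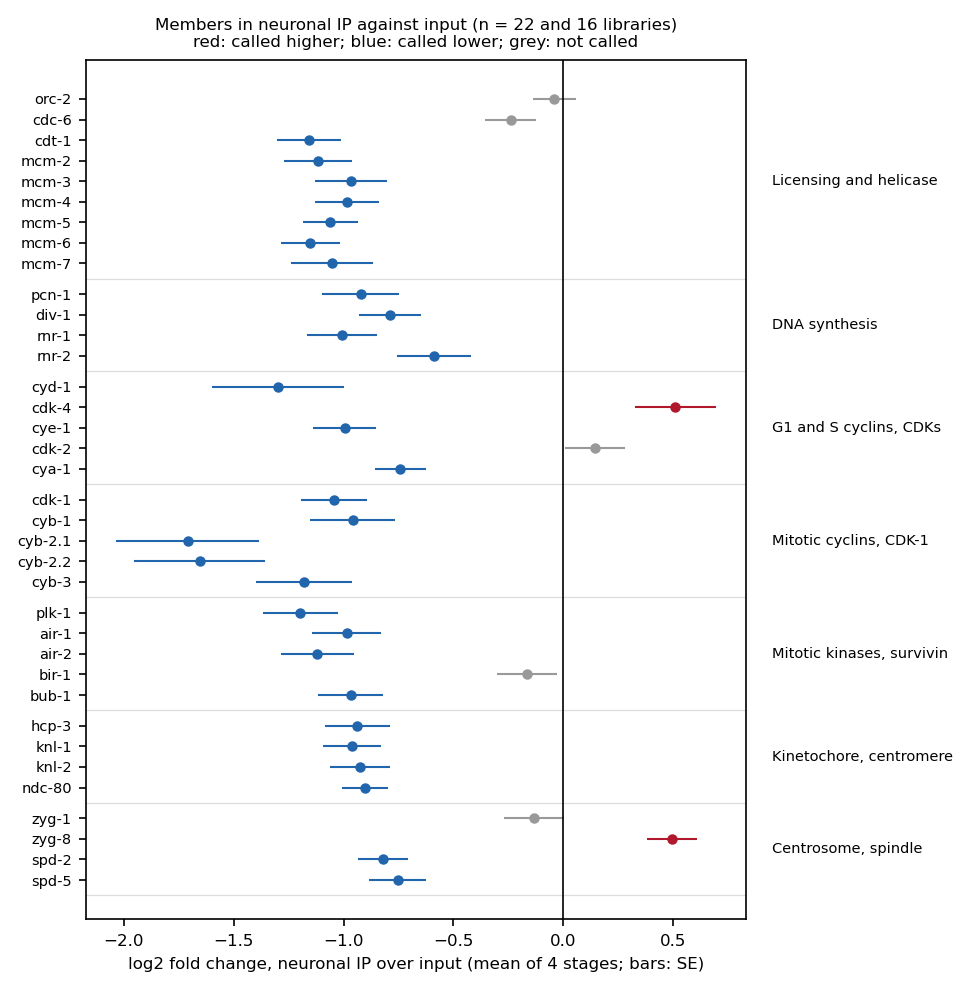
Log2 fold change of neuronal IP over input, mean of the 4 stages, for the 36 genes by role, with bars for SE and colours for the call (red higher, blue lower, grey not called). Most genes lie below 0 and below the median of 0.25 for all genes, while cdk-4 and zyg-8 lie at 0.51 and 0.5, calls that 27 and 22 of 46 other settings did not make.

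At single stages the lower calls were 25 of 36 for L1 (17.6% of all genes), 14 for L2 (11.2%), 30 for L4 (12.8%) and 22 for adults (11.9%), with medians of -0.97, -0.85, -1.25 and -0.75. Relative to the median of all genes these were -1.36, -1.31, -1.42 and -0.81. Of all genes 33.9%, 30.998%, 28.8% and 25.8% were higher at these stages. The higher calls among the 36 were zyg-8 at L1 at 1.05 (SE 0.24, adjusted p 0.000628), zyg-8 and cdk-2 at L2 at 0.93 (SE 0.26) and 0.9 (SE 0.31), and cdk-4 at L4 at 1.7 (SE 0.38, adjusted p 0.000463). In adults 0 were higher. The 2 higher calls at L2 fell to 0 with RLE scaling or no filter, and to 1 with DESeq2 or the compared groups alone. They also fell to 0 without L2 IP replicate 3, L2 input replicate 1 or L2 input replicate 4. With same-numbered IP and input libraries as a block, 28 genes were lower and 2 higher at L2, where 59.5% of all genes were called in either direction, and 33 were lower in adults, where 58.2% were called. Leaving out single libraries moved the number called at L2, 16 in all, to 28 without L2 IP replicate 3, to 26 without L2 input replicate 1 and to 25 without L2 input replicate 4, and that in adults to 13 without adult input replicate 3. With L4 replicates 4 and above alone, that is 3 IP and 1 input library, the median of the 36 at L4 was -0.93, against 0.33 for all genes.

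At L2 against L1 in neuronal IP, 0 of the 36 genes were called by edgeR, against 2.65% of all genes in either direction. At an unadjusted p under 0.05 there were 6, and DESeq2 called 1, the helicase subunit mcm-5, at a log2 fold change of -1.18 (adjusted p 0.0286). The median of the 36 was -0.34 at L2 against L1, and the 6 MCM subunits lay between -1.12 and -0.49.

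At L4 against L2 in neuronal IP, 26 genes rose and 0 fell (18.5% of all genes were higher and 7.25% lower), with a median log2 fold change of 1.31. All 5 mitotic cyclin and CDK-1 genes and all 4 kinetochore genes rose, but 1 of 5 G1 and S phase cyclin and kinase genes did. In 10 of the 36 every L4 library was above every L2 library (11.6% of all genes). With L4 replicates 4 and above alone, 10 genes were called higher, in a fit that called 2678 of all 20199 genes in either direction. The 10 were cye-1, cyb-1, cyb-2.1, cyb-2.2, air-1, air-2, bub-1, ndc-80, spd-2 and spd-5. With all L4 and L2 IP libraries, 41 of 47 germline markers and 26 of 26 sperm markers rose.

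Adults against L4 gave 34 genes higher and 0 lower in neuronal IP (18.7% of all genes were higher and 15.96% lower), with a median of 1.67 against -0.19 for all genes. The 2 without a call were cdk-4 at 0.37 and zyg-8 at 0.28. For 30 of the 36 every adult library was above every L4 library (10.7% of all genes). Of the germline markers 45 of 47 rose and 1 fell, and of 26 sperm markers 9 fell and 0 rose.

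Over the whole interval, adults against L1, 33 of the 36 were higher and 0 lower in neuronal IP (29.6% of all genes were higher and 25.8% lower). Their median change was 2.53, against 0.06 for all genes, and for 30 of the 36 every adult library was above every L1 library (15.1% of all genes). The 3 genes without a call were cyclin D, cyd-1, at -0.59, its partner cdk-4 at 0.02, and zyg-8 at 0.24. Beside these, 46 of 47 germline markers were higher, with a median of 6.24, as were 7 of 11 intestine markers and 8 of 13 hypodermis markers (1 was lower), while 8 of 18 pan-neuronal markers were lower and 0 higher. When library sizes were taken from the neuronal gene set in place of all genes, which moved the median of all genes to 0.66, 34 of the 36 were higher, zyg-8 now among them at 0.76 (adjusted p 0.00356). With adult replicates 1 to 3 alone zyg-8 was also called, at 0.55 (adjusted p 0.0182).

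In input the same interval gave 34 of the 36 higher and 0 lower (29.5% of all genes were higher and 33.97% lower), with a median of 2.16. At L2 against L1, 1 gene was called, mcm-5 at -1.07 (SE 0.24, adjusted p 0.0384), in a comparison in which 0.183% of all genes were lower and 1.15% higher. At L4 against L2, 32 were higher and cdk-4 was lower (25.7% of all genes were higher and 23.6% lower), and 30 were higher in adults against L4 (21.7% of all genes, 22.4% being lower). With L4 replicates 4 and above alone, which leaves 1 L4 input library, the median of the 36 at L4 against L2 was 0.71, against -0.16 for all genes.

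**Figure D3:**
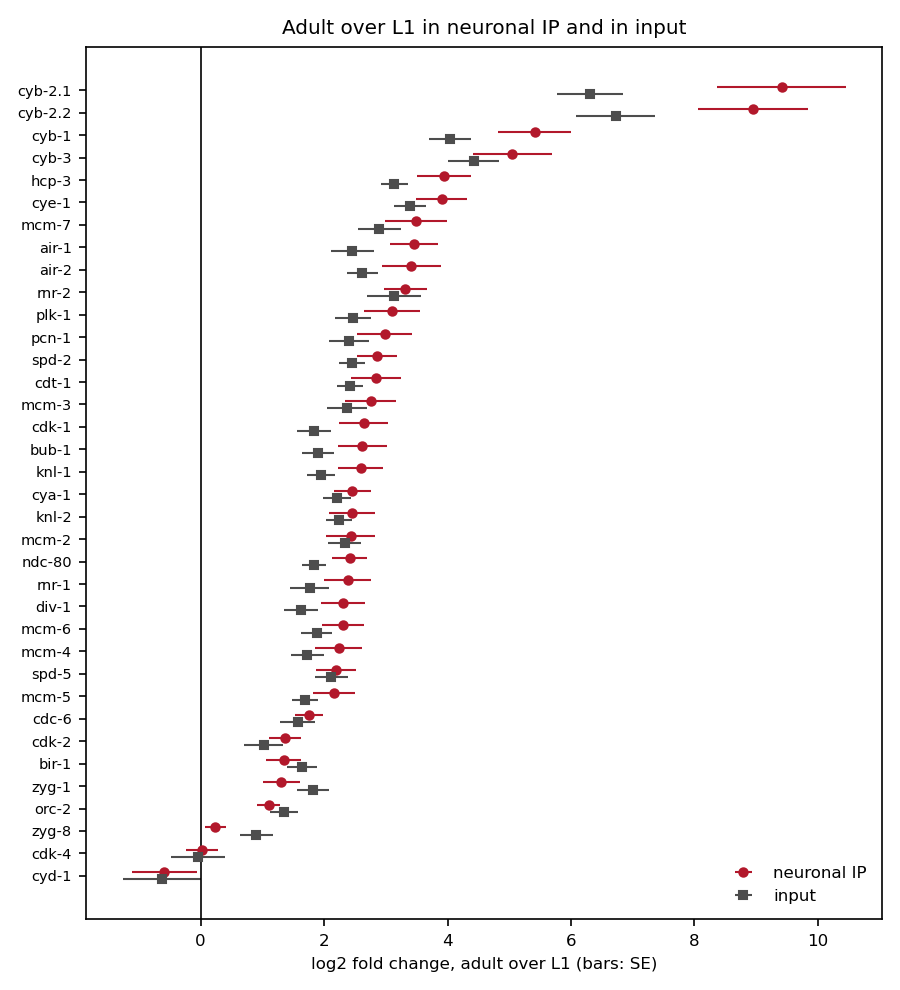
Log2 fold change of adults over L1 for each of the 36 genes, in neuronal IP (red circles) and in input (grey squares), sorted by the change in neuronal IP; bars are SE. The B-type cyclins cyb-2.1 and cyb-2.2 lie at the top at 9.41 and 8.94 in neuronal IP, and zyg-8, cdk-4 and cyd-1 lie at the bottom near 0.

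Whether the stage change itself differed between fractions was tested as the difference of the differences. Adults against L1, 1 gene was called, zyg-8 at -0.998 (SE 0.31, adjusted p 0.0261), in a comparison in which 7.79% of all genes were lower and 8.31% higher in this sense. At L4 against L2, 2 were called, cdk-2 at -1.54 (SE 0.41, adjusted p 0.0256) and zyg-1 at -1.34 (SE 0.4, adjusted p 0.0456) (3.85% of all genes lower, 1.22% higher). At the other steps edgeR called 0, against 0.00475% of all genes at L2 against L1 and 1.12% in adults against L4. Those 2 steps had 0 (L2 against L1) and 9 (adults against L4) genes at an unadjusted p under 0.05, and DESeq2 called 0 at L2 against L1 and 2 in adults against L4. With the same-numbered libraries as a block the counts were 7 for adults against L1, 8 for L4 against L2 and 2 for adults against L4, of which those at L4 against L2 were 5 higher and 3 lower. In that fit 29.9%, 22.5% and 8.72% of all genes were called in the same 3 comparisons. A fit of the 4 adult and L1 groups alone called 23 (36.8% of all genes), all higher in neuronal IP, but there the median of all genes was 1.02 and that of the 36 was 0.98. With all libraries these medians were both 0.16. Without L4 input replicate 4 the number at L4 against L2 was 9, without L2 IP replicate 5 or L2 input replicate 4 it was 1, without L2 IP replicate 2 or L4 IP replicate 3 it was 2, and without any other single library it was 0. For adults against L1 it was 0 without L1 IP replicate 1 or adult input replicate 1 or 3, and 2 without L1 IP replicate 3, adult IP replicate 3 or adult input replicate 5.

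Replication licensing and helicase genes formed the largest role, with 9 members. The origin recognition subunit orc-2 and the loading factors cdc-6 and cdt-1 place the MCM helicase, whose 6 subunits are mcm-2 to mcm-7, on origins. Of the 9, 7 were lower in neuronal IP than in input, all but orc-2 and cdc-6, and all 9 were higher in adult than in L1 neuronal IP. The largest adult change was that of mcm-7, with levels in neuronal IP of 45.6, 31.9, 33.8 and 43.4 for L1, 14.9, 20.7, 34.2, 22.3 and 33.3 for L2, 21.1, 59.3 and 99.9 (lowest, median and highest of 6, here and below) for L4 and 198, 379 and 581 CPM (of 7) for adults. Input libraries held mcm-7 at 78.8, 80.1, 72.6 and 92.5 for L1, 43.6, 47.8 and 50.7 for L2, 169, 228, 169 and 71.6 for L4 and 909.9, 686, 913, 343 and 378 CPM for adults. Every adult IP library was above every larval IP library. At L1 and L2 each IP library was below each input library, while at L4 and in adults the fractions overlapped. The fold change of mcm-7 was -1.05 (SE 0.19, adjusted p 6.56e-06) in IP against input, 1.44 (SE 0.42, adjusted p 0.0127) at L4 against L2 and 3.49 (SE 0.5, adjusted p 5.62e-06) in adults against L1. The L4 change was 0.31 (adjusted p 0.699) with L4 replicates 4 and above alone.

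The other 5 MCM subunits moved over a narrow range. Their fold changes were -0.97 (mcm-3) to -1.15 (mcm-6) in IP against input, and 2.16 (mcm-5) to 2.75 (mcm-3) in adults against L1 in neuronal IP. The licensing factor cdt-1 was similar, at -1.16 (SE 0.15) and 2.84 (SE 0.4).

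The 2 exceptions had larval IP levels that overlapped from stage to stage. In neuronal IP orc-2 was at 26.2, 20.5, 22.5 and 26.4 for L1, 24.2, 20.8, 26.1, 28.3 and 20.3 for L2, 17.6, 20.6 and 25.24 for L4 and 32, 42.7 and 52 CPM for adults. Input libraries held orc-2 at 21.4, 16.7, 17.3 and 24.1 for L1, 15.5, 15 and 25.7 for L2, 29.1, 36.7, 27.6 and 23.5 for L4 and 66.3, 51.4, 71.2, 41.8 and 40.5 CPM for adults. Adult IP libraries lay above all larval IP libraries, and IP and input overlapped at every stage. Its adult change in neuronal IP was 1.1 (SE 0.19, adjusted p 4.09e-05), the smallest among the 33 that passed. Likewise cdc-6 was at 21.1, 20.8, 24.2 and 20.9 for L1, 17.8, 17.1, 24, 30.4 and 28.3 for L2, 19.5, 25.5 and 28.7 for L4 and 42.9, 62.9 and 73.6 CPM for adults in neuronal IP. Input libraries held cdc-6 at 27.7, 16.3, 19.5 and 27.9 for L1, 17.4, 13.6 and 34.9 for L2, 45, 49.4, 47.9 and 28.2 for L4 and 87.5, 63.3, 95.2, 54.7 and 60.8 CPM for adults. Its adult IP libraries, too, were above all larval ones, with a change of 1.75 (SE 0.23, adjusted p 1.39e-06), and at L4 it was lower in IP than in input at -0.76 (SE 0.22, adjusted p 0.00599).

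DNA synthesis genes were lower in neuronal IP than in input in 4 of 4 cases and higher in adult than in L1 neuronal IP in 4 of 4. They are pcn-1, the sliding clamp PCNA, div-1, a subunit of DNA polymerase alpha, and rnr-1 and rnr-2, the large and small subunits of ribonucleotide reductase. For pcn-1 the level in neuronal IP was 32.3, 34.6, 37.2 and 37 for L1, 18.3, 17.8, 30.7, 16.2 and 32.1 for L2, 21.2, 43.2 and 87.8 for L4 and 142, 217 and 387 CPM for adults. Input libraries held pcn-1 at 68.9, 72.9, 67.5 and 87.4 for L1, 31.9, 40.6 and 36.1 for L2, 119, 145, 119 and 52.2 for L4 and 640.2, 431, 546, 229.5 and 258 CPM for adults. All adult IP libraries were above all larval ones, and IP lay wholly below input at L1 and, but for a slight overlap, at L2. Its changes were -0.92 (SE 0.18, adjusted p 2.03e-05) against input and 2.98 (SE 0.45, adjusted p 1.13e-05) in adults against L1.

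The small subunit gene rnr-2 was at 35.8, 21.2, 25.9 and 33.7 for L1, 23.8, 35.5, 32.2, 28.5 and 28.8 for L2, 24.3, 33.4 and 48.2 for L4 and 127, 274 and 333 CPM for adults in neuronal IP. Input libraries held rnr-2 at 36.4, 32.4, 28 and 58 for L1, 22.2, 29.3 and 49.8 for L2, 89.5, 114, 94 and 25.5 for L4 and 503, 430.0, 468, 222 and 192 CPM for adults. The adult IP libraries lay apart from all larval ones, while the L1, L2 and L4 IP libraries overlapped. At L4 against L2 the change was 0.41 (SE 0.29, adjusted p 0.334), and in adults against L4 it was 2.76 (SE 0.29, adjusted p 3.00e-07), the largest of this role. Fold changes of div-1 and rnr-1 in adults against L1 were 2.31 and 2.38.

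The G1 and S phase cyclins and kinases did not move together. Cyclin D with CDK-4 starts the cycle in larval cells, cyclin E with CDK-2 starts S phase, and cyclin A follows. The members showed 3 patterns: cye-1 and cya-1 followed most of the other genes, cdk-2 rose in adults and was not called against input, and cyd-1 and cdk-4 were not called in adults against L1.

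Cyclin E, cye-1, had levels in neuronal IP of 10.4, 5.7, 7.33 and 10.1 for L1, 4.57, 3.99, 10.7, 5.64 and 8.68 for L2, 14, 29.3 and 41.9 for L4 and 85.9, 110.2 and 132 CPM for adults. Input libraries held cye-1 at 16, 17.7, 15.9 and 15.9 for L1, 10.2, 11 and 15.3 for L2, 80.8, 107, 66.7 and 37.2 for L4 and 226, 133, 197, 175 and 184 CPM for adults. Its L4 IP libraries were above all L1 and L2 ones, and its adult IP libraries were above all L4 ones. Changes were -0.99 (SE 0.14, adjusted p 1.88e-07) against input, 2.22 (SE 0.35, adjusted p 6.80e-05) at L4 against L2 and 3.91 (SE 0.42, adjusted p 1.05e-07) in adults against L1. For cyclin A, cya-1, they were -0.74, 0.6 (not called) and 2.46.

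For cdk-2 the level was 11.5, 7.69, 6.76 and 8.46 for L1, 5.85, 8.27, 6.07, 6.86 and 5.04 for L2, 6.05, 8.08 and 9.17 for L4 and 11.4, 19.7 and 23.4 CPM for adults in neuronal IP. Input libraries held cdk-2 at 8.91, 5.2, 7.27 and 9.41 for L1, 2.43, 2.63 and 5.31 for L2, 14, 14.1, 14.6 and 6.39 for L4 and 18.9, 15.1, 22.4, 11.8 and 15 CPM for adults. At L2 the IP libraries lay above input libraries 1 and 2 and overlapped input library 4, and all L4 IP libraries were below L4 input libraries 1 to 3. The fold change in adults against L1 was 1.36 (SE 0.26, adjusted p 0.000143) in neuronal IP. Exons of cdk-2 overlap the noncoding gene anr-45 in the authors' gene table, and since the strand of counting is not given in the sources used here, reads of the 2 genes cannot be told apart.

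The kinase gene cdk-4 (chromosome X, 13515981 to 13518834, minus strand, in the authors' gene table, build not given) was low in neuronal IP at every stage, at 10.9, 10.8, 6.7 and 11.8 for L1, 8.51, 5.32, 8.69, 9.49 and 8.17 for L2, 3.45, 6.08 and 11.2 for L4 and 7.21, 8.26 and 9.99 CPM for adults. Input libraries held cdk-4 at 7.98, 8.29, 7.13 and 12.2 for L1, 6.26, 5.8 and 8.06 for L2, 0.866, 0.82, 2.24 and 4.37 for L4 and 11.8, 13.6, 9.86, 5.82 and 5.15 CPM for adults. In input the L4 values lay below those of every other stage, while in neuronal IP the L4 libraries reached from the lowest to the range of L1. This gap at L4 gave the fold change of 1.7 (SE 0.38) against input, and cdk-4 fell in input at L4 against L2 at -1.7 (SE 0.52, adjusted p 0.0132). Input library 4 at L4, with the highest value of the 4, was the one that stood low for other members.

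Cyclin D, cyd-1, was lower in neuronal IP than in input at -1.3 (SE 0.3, adjusted p 0.000299) and split the adult libraries. In neuronal IP it was at 17.8, 14.3, 15.3 and 16.5 CPM for L1, 8.92, 9.16, 14, 4.87 and 11.1 for L2 and 2.29, 2.04, 1.71, 8.84, 2.69 and 2.61 for L4. In the 7 adult IP libraries, in the order of their numbers, it was at 14, 17.6, 15, 5.22, 2.98, 2.1 and 5.1 CPM, so that libraries 1 to 3 lay near L1 and libraries 4 to 7 near L4. Input libraries held cyd-1 at 52.7, 41.5, 36.4 and 36.3 for L1, 26.5, 20.9 and 12.4 for L2, 5.2, 4.84, 2.46 and 15.6 for L4 and 35.9, 51, 46.6, 6.53 and 4.12 CPM for adults, with adult inputs 1 to 3 again above adult inputs 4 and 5. Adults against L1 gave -0.59 (SE 0.53) in neuronal IP with all libraries, without a call. With adult replicates 4 and above alone cyd-1 was lower at -1.86 (adjusted p 0.00332), and with adult replicates 1 to 3 alone it was at 0.26 (adjusted p 0.707). Its rise at adults against L4, 1.35 (SE 0.5, adjusted p 0.0383), was lost in 14 of 23 settings, among them leaving out any one of 8 libraries, with 0.07 (adjusted p 0.915) for adult replicates 4 and above alone. The labels give no batch that separates these libraries. Summed sperm markers split them too, at 141 to 187 CPM in adult IP libraries 1 to 3 and 397 to 751 CPM in 4 to 7. In adult inputs 1 to 3 they were at 56.9 to 87.4 CPM, against 682 and 994 CPM in inputs 4 and 5. The cause of this split was not tested.

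**Figure D4:**
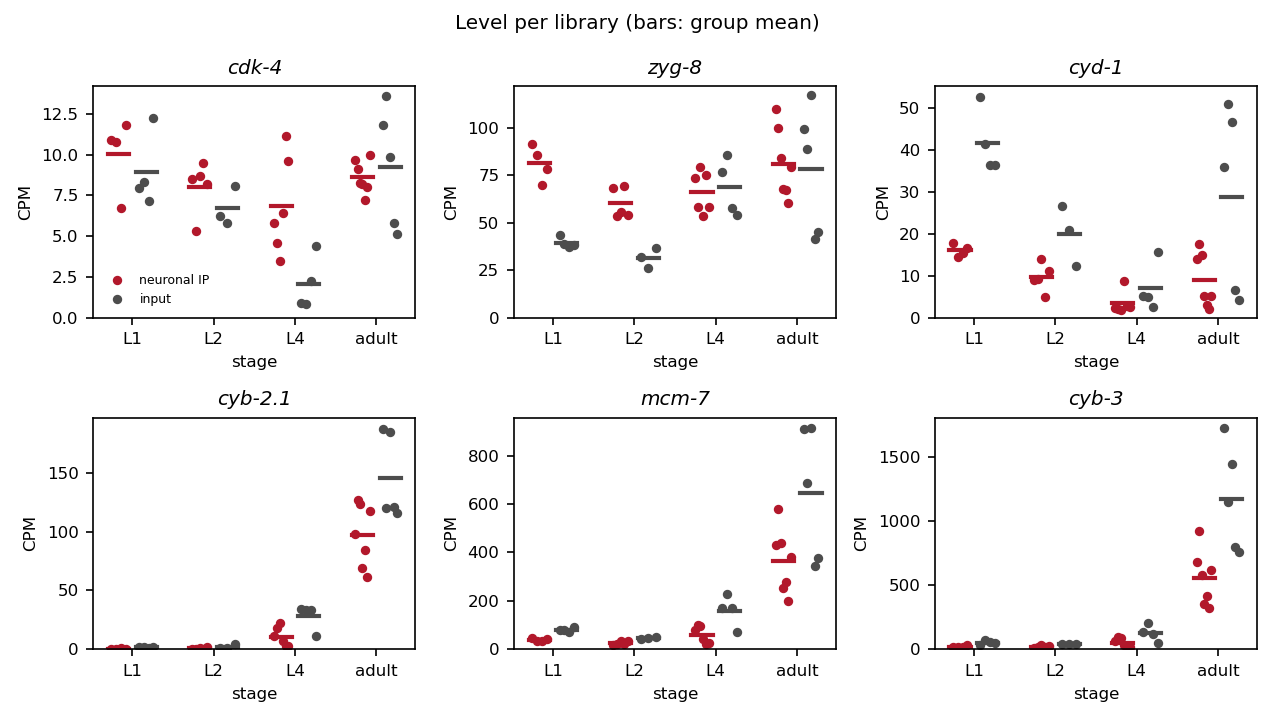
CPM in every library (linear axis) for cdk-4, zyg-8, cyd-1, cyb-2.1, mcm-7 and cyb-3, by stage, with neuronal IP in red and input in grey. In neuronal IP, cdk-4 runs from 3.45 to 11.8 CPM and zyg-8 from 53.4 to 109.9 CPM over the stages. Levels of cyd-1 fall into separate adult clusters, and cyb-2.1, mcm-7 and cyb-3 are highest in adults.

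Mitotic cyclins and CDK-1 changed most with stage. The B-type cyclins cyb-1, cyb-2.1 and cyb-2.2 and the B3-type cyclin cyb-3 activate CDK-1 for entry into mitosis and meiosis. All 5 genes of this role were lower in neuronal IP than in input over the 4 stages. All 5 were higher in adult than in L1 neuronal IP. At single stages the lower calls against input were 5 for L1, 2 for L2, 4 for L4 and 1 for adults. Of all genes 17.6%, 11.2%, 12.8% and 11.9% were lower at these stages. The median change of the 5 against input was -1.57 for L1 and -0.58 for adults. The B3-type gene cyb-3 had levels in neuronal IP of 16, 19.7, 13.4 and 30.7 for L1, 9.96, 13.8, 28.3, 18.1 and 27.8 for L2, 14.7, 43.8 and 97.2 for L4 and 318, 579 and 923 CPM for adults. Input libraries held cyb-3 at 29.1, 74.9, 54.2 and 47.1 for L1, 37.9, 42.1 and 36.9 for L2, 131, 202, 117 and 49.7 for L4 and 1725, 1149.9, 1444, 799.7 and 761 CPM for adults. Each adult IP library was above each larval one, and L4 IP libraries 4 to 6 lay within the range of L1 and L2. Its fold changes were -1.18 (SE 0.22, adjusted p 1.63e-05) against input and 5.05 (SE 0.64, adjusted p 1.32e-06) in adults against L1, and its rise at L4 against L2, 1.56 (SE 0.49, adjusted p 0.0216), was lost in 8 of 19 settings, among them leaving out L2 IP replicate 1, 2 or 4 or L4 IP replicate 2 or 3, and was 0.13 with L4 replicates 4 and above alone.

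The largest change of all belonged to cyb-2.1 (chromosome IV, 10985981 to 10987108, plus strand, 4 coding exons). In neuronal IP it was at 0, 0.0686, 0.515 and 0 for L1, 0.405, 0.345, 1.31, 0.0641 and 1.36 for L2, 2.55, 8.79 and 22.2 for L4 and 61.7, 98.4 and 127 CPM for adults. Input libraries held cyb-2.1 at 1.5, 2.11, 1.26 and 2.04 for L1, 0.858, 1.0 and 4.44 for L2, 34.1, 33.6, 33.3 and 11.1 for L4 and 188, 119.9, 185, 121 and 116 CPM for adults. The groups of L2, L4 and adult IP did not overlap in that order, and the L1 IP values rest on 0, 1, 9 and 0 counts. The fitted change in adults against L1 was 9.41 (SE 1.04, adjusted p 3.02e-07) in neuronal IP, a size that at so few L1 counts depends on the prior count, and 6.31 (SE 0.54, adjusted p 1.09e-07) in input. Its close paralog cyb-2.2 (chromosome I, 4114880 to 4116075) had 8.94, and the authors' counting could split or drop reads that fit both genes. Next in this role came cyb-1 at 5.41 (SE 0.59), which had already risen at L4 against L2 at 4.03 (SE 0.5), then cyb-3, and last cdk-1 at 2.64 (SE 0.4).

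Mitotic kinases and the passenger protein survivin make up 5 genes: plk-1 (Polo-like kinase), air-1 and air-2 (Aurora A and B), bub-1 (a kinetochore checkpoint kinase) and bir-1 (survivin). Of these, 4 were lower in neuronal IP than in input, all but bir-1, and 5 of 5 were higher in adults than at L1 in neuronal IP. In neuronal IP plk-1 was at 32.1, 15.7, 18.3 and 27.2 for L1, 12.1, 14.1, 26.2, 15.1 and 19.8 for L2, 17.4, 47.2 and 76 for L4 and 107, 181 and 225 CPM for adults. Input libraries held plk-1 at 62.2, 53.9, 49.1 and 53.8 for L1, 35.7, 38.3 and 40.8 for L2, 154, 188, 133 and 57.3 for L4 and 438, 296, 429.5, 219 and 233 CPM for adults. At L1 and L2 every IP library was below every input library, and adult IP lay above all larval IP. Changes of plk-1 were -1.2 (SE 0.17, adjusted p 1.29e-07) against input and 3.1 (SE 0.46, adjusted p 8.19e-06) in adults against L1.

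Aurora A, air-1, changed most in this role. It had levels in neuronal IP of 10.2, 6.8, 5.15 and 12 for L1, 4.34, 3.94, 8.94, 6.29 and 7.36 for L2, 15.8, 29.8 and 39.8 for L4 and 53.6, 81.9 and 100.3 CPM for adults. Input libraries held air-1 at 16.5, 14, 11.4 and 30.2 for L1, 9.41, 11 and 16.9 for L2, 88.3, 107, 76.9 and 38.7 for L4 and 137, 86, 142, 82.8 and 81.9 CPM for adults. In neuronal IP the L4 libraries were above all L1 and L2 libraries and below all adult ones, while in input L4 and adult libraries overlapped. In neuronal IP it rose by 3.45 (SE 0.39) in adults against L1. Adults against L4 gave 1.41 (SE 0.3, adjusted p 0.000724) in neuronal IP, beside 0.37 (SE 0.32, adjusted p 0.374) in input. That difference between the fractions was not called, at 1.02 (SE 0.41, adjusted p 0.238).

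Survivin, bir-1, did not follow the other 4. Its level was 9.71, 16.4, 12.5 and 26.2 for L1, 22.5, 13.4, 18.7, 23.6 and 17 for L2, 8.47, 19.2 and 24.9 for L4 and 23.6, 32.9 and 53.4 CPM for adults in neuronal IP. Input libraries held bir-1 at 12.9, 20.8, 21.8 and 21.8 for L1, 19.6, 16.4 and 13.4 for L2, 12.9, 12.5, 16 and 21.1 for L4 and 61.8, 47.5, 55.4, 76.7 and 77 CPM for adults. Larval IP and input libraries overlapped at every stage, and in adults IP was below input in all but the highest IP library, with -0.86 (SE 0.23, adjusted p 0.00324). In adults against L1 it rose in neuronal IP by 1.35 (SE 0.29, adjusted p 0.000452), and L4 against L2 gave 0.11.

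Kinetochore and centromere genes were lower in neuronal IP than in input in 4 of 4 cases, within -0.96 to -0.9, and higher in adult than in L1 neuronal IP in 4 of 4, within 2.42 to 3.95. They are hcp-3, the centromeric histone CENP-A, knl-2, which helps to load it, and knl-1 and ndc-80, which bind microtubules. For knl-2 the level in neuronal IP was 28.9, 28.6, 36.9 and 26.4 for L1, 19.3, 16.6, 28.3, 16 and 26.9 for L2, 21.2, 43.2 and 79.5 for L4 and 98.4, 122 and 191 CPM for adults. Input libraries held knl-2 at 56.6, 62.6, 59.9 and 47.5 for L1, 28.8, 40.4 and 30.4 for L2, 117, 122, 120.0 and 54.6 for L4 and 326, 287, 301, 242 and 268 CPM for adults. Each IP group lay below its input group at L1, L2 and adulthood, without overlap. Its changes were -0.93 (SE 0.14, adjusted p 2.66e-07) against input and 2.45 (SE 0.37, adjusted p 1.08e-05) in adults against L1.

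The histone gene hcp-3 had levels in neuronal IP of 3.59, 3.09, 3.03 and 3.03 for L1, 2.9, 1.23, 5.0, 3.66 and 5.14 for L2, 5.48, 10.7 and 17.6 for L4 and 30.2, 44.3 and 49.8 CPM for adults. Input libraries held hcp-3 at 5.79, 8.43, 9.79 and 7.86 for L1, 5.33, 6.0 and 6.03 for L2, 19.8, 21.2, 26.4 and 12.9 for L4 and 73.3, 62.8, 71.1, 79.7 and 85.3 CPM for adults. In neuronal IP, L4 was above both earlier stages and adults were above L4, with no overlap, and IP lay below input at L1, L2 and adulthood. Adults against L1 gave 3.95 (SE 0.44, adjusted p 1.98e-07), the largest change outside the mitotic cyclins. Exons of hcp-3 overlap a piRNA gene, 21ur-9360, in the authors' gene table.

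Centrosome and spindle genes were split. The centriole and pericentriolar proteins of spd-2 and spd-5 recruit the material that nucleates microtubules, zyg-1 is the kinase that starts centriole duplication, and zyg-8 binds microtubules with its doublecortin domain. Of the 4, spd-2 and spd-5 were lower in neuronal IP than in input and 3, all but zyg-8, were higher in adult than in L1 neuronal IP. In neuronal IP spd-5 was at 87, 45.2, 64.4 and 58 for L1, 37.2, 49.97, 43, 41.6 and 45.8 for L2, 63.8, 130.3 and 159 for L4 and 159, 257 and 334 CPM for adults. Input libraries held spd-5 at 101, 72.8, 72.4 and 88 for L1, 49.6, 62.3 and 83.9 for L2, 358, 385, 347 and 147 for L4 and 414, 372, 506, 306 and 333 CPM for adults. Its L4 IP libraries were above all L2 libraries and lay just below the adult ones, 159.0 CPM at most against at least 159.4 CPM. Changes of spd-5 were -0.75 (SE 0.13, adjusted p 4.54e-06) against input and 1.62 (SE 0.29, adjusted p 0.000209) at L4 against L2.

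The pericentriolar gene spd-2 had levels in neuronal IP of 29.9, 22.3, 17.6 and 26.2 for L1, 20.2, 18.1, 29.7, 19.3 and 25.9 for L2, 31, 55 and 69.1 for L4 and 95.4, 151 and 181 CPM for adults. Input libraries held spd-2 at 46.8, 48.4, 38 and 45.4 for L1, 31, 25 and 28.9 for L2, 143, 145, 129.7 and 71.9 for L4 and 305, 249.5, 326, 197 and 221 CPM for adults. L4 was above both earlier stages and adults above L4 in neuronal IP, without overlap, and the adult change from L1 was 2.86 (SE 0.32, adjusted p 1.72e-07). The kinase gene zyg-1 was at 36, 23, 33.8 and 17.6 for L1, 18.7, 14.9, 19.4, 22.7 and 18.3 for L2, 15.2, 21.9 and 28.5 for L4 and 26, 54 and 93.6 CPM for adults in neuronal IP. Input libraries held zyg-1 at 27.4, 22, 17.6 and 17.2 for L1, 12.5, 10.3 and 18.7 for L2, 46.5, 44, 48 and 23.5 for L4 and 90.8, 85.7, 103, 60.3 and 55.7 CPM for adults. Neuronal IP and input overlapped at L1, L2 and adulthood, and at L4 all 6 IP libraries were below input libraries 1 to 3, with -0.9 (SE 0.26, adjusted p 0.00561). Adult and L1 IP libraries of zyg-1 overlapped, at a change of 1.31 (SE 0.3, adjusted p 0.00104).

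The doublecortin-family gene zyg-8 (chromosome III, 12061639 to 12071897, plus strand, 17 coding exons) is known both for positioning the spindle in the embryo and for organising microtubules in worm neurons. Its level in neuronal IP was 91.3, 85.7, 69.6 and 78.5 for L1, 68.3, 53.7, 55.4, 69.4 and 54.1 for L2, 53.4, 65.9 and 79.1 for L4 and 60.5, 79.1 and 109.9 CPM for adults. Input libraries held zyg-8 at 43.6, 38.6, 37 and 38 for L1, 31.9, 25.9 and 36.8 for L2, 76.6, 85.6, 57.8 and 54.2 for L4 and 99.4, 88.7, 117, 41.5 and 44.9 CPM for adults. At L1 and L2 every IP library was above every input library, and at L4 and in adults the fractions overlapped. In neuronal IP the adult and L4 libraries overlapped those of L1 and L2, whereas in input every L4 library was above every L1 and L2 library. In input zyg-8 rose at L4 against L2 by 1.06 (SE 0.31, adjusted p 0.0103) and in adults against L1 by 0.9 (SE 0.27, adjusted p 0.00798), while adult inputs 4 and 5 lay near L1.

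The order of the genes by level per length changed with stage. On the scale of mean CPM per kilobase of coding length in neuronal IP, the highest in adults were cyb-3 at 480.1, pcn-1 at 295 and rnr-2 at 213, and the lowest were cyd-1 at 7.28 and cdk-4 at 6.41. At L1 the highest were pcn-1 at 44.5, bir-1 at 34.6 and zyg-8 at 33.7, and the lowest were cyb-2.2 at 0.3 and cyb-2.1 at 0.15. With its level per kilobase at 33.7 in adults as at L1, zyg-8 was 30th of the 36 in adults and 3rd at L1, and cyb-2.1 was 7th in adults and 36th at L1. Adult input had the same 6 genes at the top in the same order, led by cyb-3 at 1016.

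**Figure D5:**
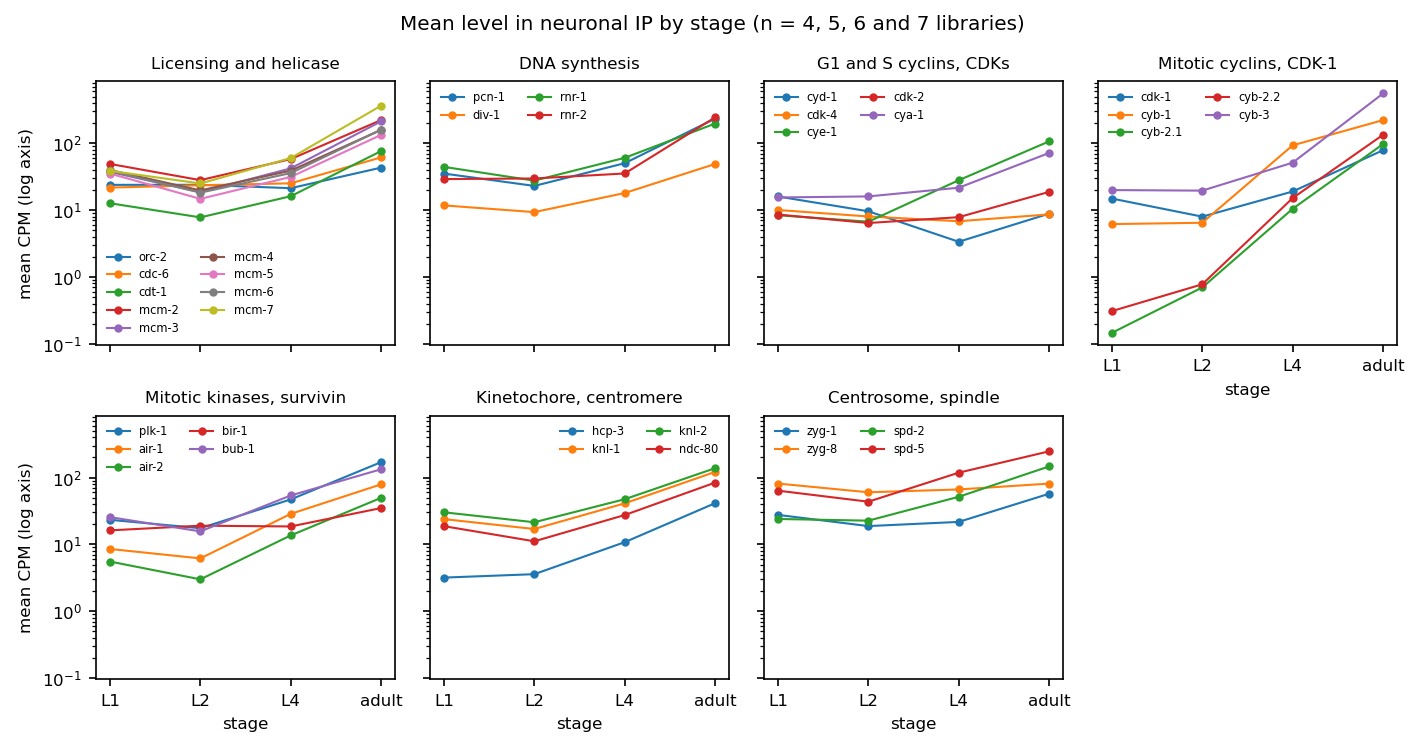
Mean CPM in neuronal IP by stage (log axis) for the 36 genes in 7 panels by role, one line per gene. By adults the lines of 33 genes lie above their L1 start, and those of cdk-4, cyd-1 and zyg-8 do not rise clear of it.

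Other genes of the pathway were read on 3 lists. Of 30 other replication genes, 26 were lower and 1 higher in neuronal IP than in input (23.4% and 40.97% of all genes). In adults against L1 in neuronal IP, 29 were higher and 0 lower (29.6% and 25.8% of all genes). Beside the median of 0.25 for all genes, the GINS helicase subunits went apart, with sld-5 higher at 0.64 (SE 0.1, adjusted p 5.67e-07) and psf-2 lower at -1.58 (SE 0.21, adjusted p 2.95e-08), and the licensing inhibitor geminin, gmn-1, was lower at -1.25 (SE 0.26, adjusted p 8.09e-05). Of 48 other mitosis genes, 37 were lower and 2 higher in neuronal IP over the 4 stages, and 43 were higher and 0 lower in adults than at L1. The 2 higher ones act on microtubules, zyg-9 at 0.39 (SE 0.11, adjusted p 0.00177) and the gamma-tubulin complex gene gip-1 at 0.31 (SE 0.1, adjusted p 0.00791). The lowest were the kinetochore gene kbp-4 at -1.21 (SE 0.24, adjusted p 4.67e-05) and the kinesin gene bmk-1 at -1.19 (SE 0.16, adjusted p 5.48e-08). For L1, L2, L4 and adults 22, 15, 39 and 28 of the 48 were lower and 7, 9, 0 and 0 higher against input. Of all genes 17.6%, 11.2%, 12.8% and 11.9% were lower and 33.9%, 30.998%, 28.8% and 25.8% higher. The summed ratio of the 48 to same-numbered input had medians of 1.06, 1.37, 0.584 and 0.772 at these stages.

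Regulators of the cycle were mixed against input. Of 37, 17 were lower, 5 higher and 15 not called in neuronal IP (23.4% of all genes were lower and 40.97% higher). In adults against L1 in neuronal IP, 31 were higher and 3 lower (29.6% and 25.8% of all genes). For L1, L2, L4 and adults 6, 6, 21 and 18 of the 37 were lower and 9, 9, 4 and 0 higher against input. Of all genes 17.6%, 11.2%, 12.8% and 11.9% were lower and 33.9%, 30.998%, 28.8% and 25.8% higher. The summed ratio of the 37 to same-numbered input had medians of 1.56, 1.89, 0.766 and 0.815 at these stages. Highest against input were wee-1.1, a gene of the Wee1 kinase family that holds CDK-1 inactive, at 1.74 (SE 0.32, adjusted p 1.43e-05), and atl-1, the checkpoint kinase ATR, at 1.36 (SE 0.14, adjusted p 2.89e-10). Lowest were the phosphatase gene cdc-25.3 at -1.4 (SE 0.42, adjusted p 0.00365) and the anaphase-promoting complex gene apc-10 at -1.29 (SE 0.2, adjusted p 4.47e-07). Among brakes on G1, the CDK inhibitor cki-1 was at -0.55 (SE 0.22, adjusted p 0.0289), its relative cki-2 at -1.06 (SE 0.15, adjusted p 9.40e-08) and the retinoblastoma-family gene lin-35 at -0.59 (SE 0.09, adjusted p 3.04e-07). With stage, cki-2 and lin-35 rose in adult neuronal IP against L1, at 3.41 (SE 0.37, adjusted p 1.19e-07) and 1.37 (SE 0.2, adjusted p 8.75e-06), while cki-1 was at -0.46 (SE 0.38, adjusted p 0.308).

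Like cyd-1 and cdk-4, the CDK inhibitor cki-1 was thus not called in adults against L1. In neuronal IP cki-1 was at 10.2, 3.29, 4.81 and 11.1 for L1, 4.0, 8.47, 11.5, 9.88 and 8.02 for L2, 2.75, 5.9 and 7.12 for L4 and 3.7, 3.88 and 7.68 CPM for adults. Input libraries held cki-1 at 16.9, 7.99, 7.76 and 19.3 for L1, 9.84, 7.83 and 23.6 for L2, 6.77, 7.3, 5.24 and 6.16 for L4 and 6.04, 6.06, 13.7, 1.66 and 2.8 CPM for adults. Its adult IP libraries lay within the range of the L1 IP libraries, and the lowest adult inputs were again libraries 4 and 5. The kinase gene wee-1.1 fell in neuronal IP at L4 against L2, at -1.75 (SE 0.37, adjusted p 0.00101), and in adults against L1, at -2.35 (SE 0.37, adjusted p 1.82e-05).

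Markers of other cell types were read beside these values. In neuronal IP against input, 40.97% of all genes were higher and 23.4% lower. Of 47 germline markers 0 were higher and 42 lower, and 9 of 11 intestine and 11 of 12 body wall muscle markers were lower. Of 27 sperm markers 3 were higher and 2 were lower. Sperm markers summed to 141 to 751 CPM in adult neuronal IP, against 56.9 to 994 CPM in adult input, with the split between libraries given under cyd-1. At L1 they summed to 118 to 133 CPM in neuronal IP, against 21.5 to 26.3 CPM in input. The sperm gene ssp-9 was at 0 in every library of these groups. Intestine markers summed to 28378 to 71950 CPM in adult neuronal IP, against 86496 to 185474 CPM in adult input, and to 1369 to 2024 CPM in L1 neuronal IP, against 7884 to 9771 CPM in L1 input. Of the 8 markers of neuronal precursors, 3 were higher and 0 lower against input, near the share of all genes for higher calls (40.97%). In adults against L1 in neuronal IP, 0 were higher and 2 lower (29.6% and 25.8% of all genes). Their summed ratio of IP to same-numbered input ran from 0.763 to 1.07 at L1 and 1.04 to 1.73 at L2. It ran from 1.81 to 4.36 at L4 and from 0.436 to 0.725 in adults. Early embryo markers summed to 5.9 to 15.9 CPM in adult neuronal IP and 7.9 to 27.04 CPM in adult input. The part of these cell types in the changes of the 36 genes was not tested.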

How the data were processed

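Nuclei were released from synchronised animals and enriched by density gradient, and neuronal nuclei were pulled down from them, per the labels' protocols. The authors deposited a table of raw counts per gene for the 38 control libraries. Subread, featureCounts and DESeq2 are named in the submitters' processing notes, with no version, and no source used here gives the genome build or the strand setting. Every column of the table matched 1 library (0 unmatched), and the grouping follows the labels. Coordinates are those of the authors' gene table, whose exons match the WBcel235 annotation for 0 of the 36 genes. Coding lengths were multiples of 3 for all 36, so levels per kilobase are per coding length.

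Counts were tested in R 4.3.3 with edgeR 4.0.16: low counts were removed with filterByExpr at a minimum count of 10, libraries were scaled by TMM, and quasi-likelihood tests were run with robust dispersions. The 38 libraries were fitted together for IP against input and for differences between fractions (21040 genes), the 22 IP libraries for IP stages (19658 genes) and the 16 inputs for input stages (18063 genes). P-values were adjusted by Benjamini-Hochberg over all genes of a fit, and a gene was called at an adjusted p under 0.05. DESeq2 1.42.0 was an alternative, with RLE scaling, no filter, a replicate block, the compared groups alone, library sizes from the neuronal gene set, subsets of L4 and adult replicates, and leaving out each library. Data for adult against L1 neuronal IP (18921 genes) were also simulated, with the same dispersion of 0.1 for every gene. There 94 of 97 genes changed by 2 on the log2 scale and 27 of 98 changed by 1 were recovered, with 5 false calls. The spread of the real libraries was not simulated, so these rates do not measure the power reached in these data.

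Same-numbered IP and input libraries of a stage deviated together, with correlations of 0.288 to 0.468 at L1, 0.167 to 0.427 at L2, 0.334 to 0.586 at L4 and 0.453 to 0.780 in adults. They were taken as pairs in the ratios of IP to input and in the replicate block, which was an alternative setting. The main tests of IP against input and of differences between fractions fitted 8 group means and did not use this pairing. No 2 libraries agreed within sampling noise. No label ties replicates to separate cultures. The p-values therefore reflect variation among these samples only, which may be technical. Replicate numbers did not pair stages. The members, their roles and all gene lists were chosen with earlier results of these data known. Named in full were, for each role, the member with the highest mean CPM over the 38 libraries and the one with the largest adult change against L1, every member not called or called higher in IP against input, and, after its values were seen, cyd-1. In the 3 pathway lists the 2 genes called with the largest change in each direction against input were named, and cki-1, cki-2 and lin-35.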

Additional observations from a re-analysis of the deposited data

Results flagged for a closer look

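Within groups of 4 to 7 libraries, 140 sets of values of named genes were searched for a library that stood far from the rest, and 10 were found, where chance gives about 1 in 20. Of these, 5 were L4 input replicate 4, which was below the other 3 L4 inputs for cyb-2.1 (11.1 CPM against 33.3 to 34.1), knl-2 (54.6 against 117 to 122), spd-5 (147 against 347 to 385), cdk-2 (6.39 against 14.02 to 14.6) and zyg-1 (23.5 against 43.96 to 47.98). In L1 neuronal IP, cyb-2.1 was at 0.515 CPM in replicate 3 against 0 to 0.0686 in the others, hcp-3 at 3.59 in replicate 1 against 3.03 to 3.09, and cdc-6 at 24.2 in replicate 3 against 20.8 to 21.1. In L1 input, cye-1 was at 17.7 CPM in replicate 2 against 15.89 to 15.95, and bir-1 at 12.9 in replicate 1 against 20.8 to 21.8.

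Stage changes that differed between neuronal IP and input were called for 3 genes. At L4 against L2 the change in neuronal IP minus that in input was -1.54 for cdk-2 and -1.34 for zyg-1 on the log2 scale, both of which were also low in L4 input replicate 4. In adults against L1 it was -0.998 for zyg-8.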

How the results depend on the processing

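Leaving out 1 library at a time, the number of the 36 genes called lay between 31 and 33 for IP against input over all stages (31 with all libraries), 19 and 29 for L1 (26), 13 and 28 for L2 (16), 30 and 33 for L4 (31) and 13 and 33 for adults (22). Within neuronal IP it lay between 24 and 27 at L4 against L2 (26), 32 and 34 in adults against L4 (34), 33 and 33 in adults against L1 (33), and 0 and 0 at L2 against L1 (0). Within input it lay between 0 and 1 at L2 against L1 (1), where it was 0 without L1 input replicate 2, 3 or 4 or L2 input replicate 1, 2 or 4. It lay between 29 and 35 at L4 against L2 (33), 27 and 31 in adults against L4 (30), and 34 and 34 in adults against L1 (34). For the difference between fractions the ranges were 0 to 0 at L2 against L1 (0), 0 to 9 at L4 against L2 (2), 0 to 2 in adults against L4 (0) and 0 to 2 in adults against L1 (1). In adults against L4 it was 2 without L4 IP replicate 1, adult IP replicate 7 or L4 input replicate 4, and 1 without L4 IP replicate 2, 3 or 4, adult IP replicate 6 or adult input replicate 4 or 5. The count for IP against input at L2 was 26 with RLE scaling, 27 with no filter, 26 with DESeq2, 30 with the replicate block and 25 with the groups alone. In adults it was 9 with adult replicates 4 and above alone, where 5896 of all 21515 genes were called. With L4 replicates 4 and above alone, 1 L4 input was left, and the median of the 36 at L4 was -0.93. At L2 against L1, neuronal IP gave 1 gene with DESeq2 and 1 with the groups alone, and input gave 0 with no filter, 0 with the block and 5 with the groups alone. With L4 replicates 4 and above alone, L4 against L2 gave 10 genes in neuronal IP, where 2678 of all 20199 genes were called. In input, with 1 L4 library left, the median of the 36 was 0.71, against 1.59 with all libraries. The difference at L4 against L2 gave 0 genes with RLE scaling, no filter, the groups alone or L4 replicates 4 and above, 1 in the opposite direction with L4 replicates 1 to 3 alone and 8 with the replicate block, 5 of them higher. In adults against L4 it gave 1 with RLE scaling, 2 with DESeq2, 2 with the block, 2 with the groups alone, 1 with L4 replicates 1 to 3 and 1 with adult replicates 1 to 3. In adults against L1 it gave 1 in the opposite direction with no filter, 3 with DESeq2, 7 with the block, 23 in the opposite direction with the groups alone and 0 with adult replicates 4 and above. The block changed no other count by over 1.5 times, and taking library sizes from the neuronal gene set changed none of the neuronal IP stage counts so. Of the named genes, cdk-4 was at -0.0148 with adult replicates 1 to 3 alone, against 0.51 with all libraries, in IP against input. The cause of these shifts was not tested. The planned comparisons with mutants were not run, since their tables hold 0 of the 36 genes. Depth limited cyb-2.1 and cyb-2.2 in L1 neuronal IP, where no library held more than 9 counts of either gene.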
